A study of Mus musculus with 3 samples.

Results

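White adipocyte bins are the small squares of a spatial transcriptome in which the RNA of white fat cells stood out. Transcripts, each counted once by its unique molecular identifier (UMI), were summed in squares of 27 µm on thymus sections, and a square (bin) was kept when it held at least 300 genes and at most 30% of its UMIs from the mitochondrial genome. White bins were then selected by their own counts: 6 genes of white adipocytes (*Adipoq*, *Cfd*, *Car3*, *Retn*, *Cidec* and *Plin4*) made up at least 1% of the UMIs, and 4 genes of brown adipocytes (*Ucp1*, *Cidea*, *Cox8b* and *Cox7a1*) less than 0.5%. This rule held for 1104 of 56744 kept bins. The 2 *Trp53*-null sections held 1082 of them among 29469 kept bins, and the section of the mouse with intact *Trp53* held 22 among 27275. A bin is a region that can hold parts of several cells, so a white bin holds white adipocyte RNA together with that of whatever lay beside it. Whether each white bin contained an adipocyte was not tested.

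The study followed loss of the tumour suppressor p53 across the organs of mice, and its spatial data consist of 1 thymus section from each of 3 female C57BL/6 mice. The mice labelled KO1134 (*Trp53*-/-, 17 weeks old) and KO1308 (*Trp53*-/-, 21 weeks old) lacked the gene in the whole body and were described as pre-neoplastic. The mouse labelled WT1101 (*Trp53*+/+, 17 weeks old) was the wild type (WT), and all 3 were perfused with saline before the thymus was taken. The sections are called here by these labels because the study's own sample table gives values for mouse KO1308 that lie nearer to those of the section labelled KO1134, so that which KO mouse each section came from was not settled. In kept bins *Trp53* itself was counted 529 times in KO1134 (17.0 CPM, UMIs per 1000000 UMIs of the same bins), 467 times in KO1308 (25.3 CPM) and 3245 times in WT1101 (79.8 CPM).

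White adipocytes store triglyceride in a large droplet coated by perilipins and CIDE proteins, build fatty acids from glucose, take them up from lipoproteins through lipoprotein lipase, and release them when lipases are switched on. They also secrete hormones, among them adiponectin, leptin, resistin and adipsin. The mouse thymus lies in the fat of the mediastinum, in which white and brown adipocytes occur close to each other.

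The sections held 31237062 UMIs (KO1134), 21089885 (KO1308) and 41581477 (WT1101). Of the slide barcodes with UMIs, 5486 were shared by the KO sections, 1.64% of those of KO1134 and 0.658% of those of KO1308; KO1134 shared 5841 with WT1101 and KO1308 shared 13503. No p-value is given below: bins of 1 section are not replicates, they were chosen from the same counts, and there was 1 WT section, so genotype, section and handling cannot be told apart. Intervals in brackets are exact 95% intervals (Poisson for a level, conditional binomial for a ratio, Clopper-Pearson for a share), and they cover counting error only. In such bins fewer cells of a type and less RNA per cell cannot be told apart.

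White bins made up 4.96% of the kept bins of KO1134 (597 of 12044; 4.58 to 5.36), 2.78% of those of KO1308 (485 of 17425; 2.54 to 3.04) and 0.0807% of those of WT1101 (22 of 27275; 0.0506 to 0.122). They covered 0.435 mm2, 0.354 mm2 and 0.0160 mm2. The shares of the KO sections did not overlap in their counting intervals, and both lay above that of the WT section. The order of the KO sections depended on the rule: with a limit of 2% it reversed, at 1.32% in KO1134 and 1.74% in KO1308, and without *Cfd* the shares were 1.34% and 1.26%. The 6 genes together were at 642 CPM over all kept bins of KO1134, at 1275 CPM in KO1308 and at 18.2 CPM in WT1101, and the white bins held 54.2%, 53.1% and 49.2% of those UMIs. Brown bins, in which the 4 brown genes made up at least 0.5%, numbered 300 in KO1134, 561 in KO1308 and 0 in WT1101, of which 23 and 173 also held at least 1% of the white genes. They held another 19.3% and 33.1% of the UMIs of the 6 white genes in the KO sections.

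White bins were shallow. Their median was 938 UMIs in KO1134, where other bins had 2717, 748 in KO1308 (other bins 836) and 800.5 in WT1101 (other bins 1351). At a common depth of 500 UMIs a white bin of KO1134 still showed fewer genes, a median of 380 beside 425 in other bins, and the values in KO1308 were 377 and 431; 25 and 96 white bins were too shallow for this. The mitochondrial share was higher in white bins, with medians of 6.50% beside 0.987% (KO1134), 5.97% beside 1.06% (KO1308) and 4.67% beside 0.676% (WT1101). The part of depth and of the mitochondrial share in the results that follow was not tested beyond the alternatives given at the end.

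The 6 genes of the rule held a median of 1.58% of the UMIs of a white bin in KO1134 (highest 4.11%), 2.63% in KO1308 (highest 8.13%) and 1.75% in WT1101 (highest 2.99%). *Cfd*, which encodes adipsin, contributed 52.3% of these UMIs in KO1134, 64.2% in KO1308 and 63.9% in WT1101, and was found in 596 of 597, 484 of 485 and 22 of 22 white bins. *Car3*, a carbonic anhydrase abundant in fat, contributed 26.4%, 16.9% and 10.7%. *Adipoq*, which encodes adiponectin, was found in 383 (64.2%), 270 (55.7%) and 11 (50%) white bins. Just inside the limit, at 1.0 to 1.1%, lay 75 bins of KO1134 and 30 of KO1308, and just outside, at 0.9 to 1.0%, lay 51 and 21. The droplet coat gene *Plin1*, which the rule did not use, was at 279 and 337 CPM just inside and at 170 and 256 CPM just outside.

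White bins lay in patches and, over the main tissue, nearer to its outer edge than other bins did. In KO1134 they formed 30 connected patches, of which the largest had 291 bins and the next 146, and 93.8% of the white bins lay in 9 patches of at least 10 bins. In KO1308 there were 49 patches, the largest of 91 and 70 bins, and 12 patches of at least 10 bins held 76.1%. On average 71.1% (KO1134) and 73.8% (KO1308) of the kept neighbours of a white bin were white, whereas for other bins these shares were 1.41% and 0.621%. The median distance to the outer edge of the tissue was 108 µm for the 597 white bins of KO1134, beside 352 µm for other bins, and 38.2 µm for the 290 white bins of KO1308 over the main tissue, beside 191 µm. Within 100 µm of the edge lay 48.2% and 93.8% of the white bins over tissue, and 15.3% and 29.3% of the other bins. Brown bins, counted among the other bins, shared both traits. Their median distance to the edge was 85.4 µm in KO1134 and 81 µm in KO1308, with 57.7% and 59.6% within 100 µm. Of their kept neighbours 74.9% and 91.9% were brown.

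The thymus area was drawn from 6 genes of the thymic cortex (*Themis*, *Arpp21*, *Ptcra*, *Cd8b1*, *Prss16* and *Psmb11*): a bin belongs to it when the 7 by 7 bins around it have, for these genes, a share of UMIs that reaches 50% of that in the whole section. By this measure 42.2% of the white bins of KO1134 (38.2 to 46.3) and 39.8% of those of KO1308 (35.4 to 44.3) lay in the area, beside 80.9% and 83.1% of other bins. With a limit of 25% the shares of white bins became 83.4% and 48.3%. White and brown bins were near each other in part: 83 white bins of KO1134 (13.9%) and 72 of KO1308 (14.9%) had a brown neighbour. In KO1308, 195 white bins lay in detached groups of fewer than 200 kept bins, away from the main tissue, as did 14 of the 22 white bins of WT1101 and 0 of KO1134.

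**Figure D1:**
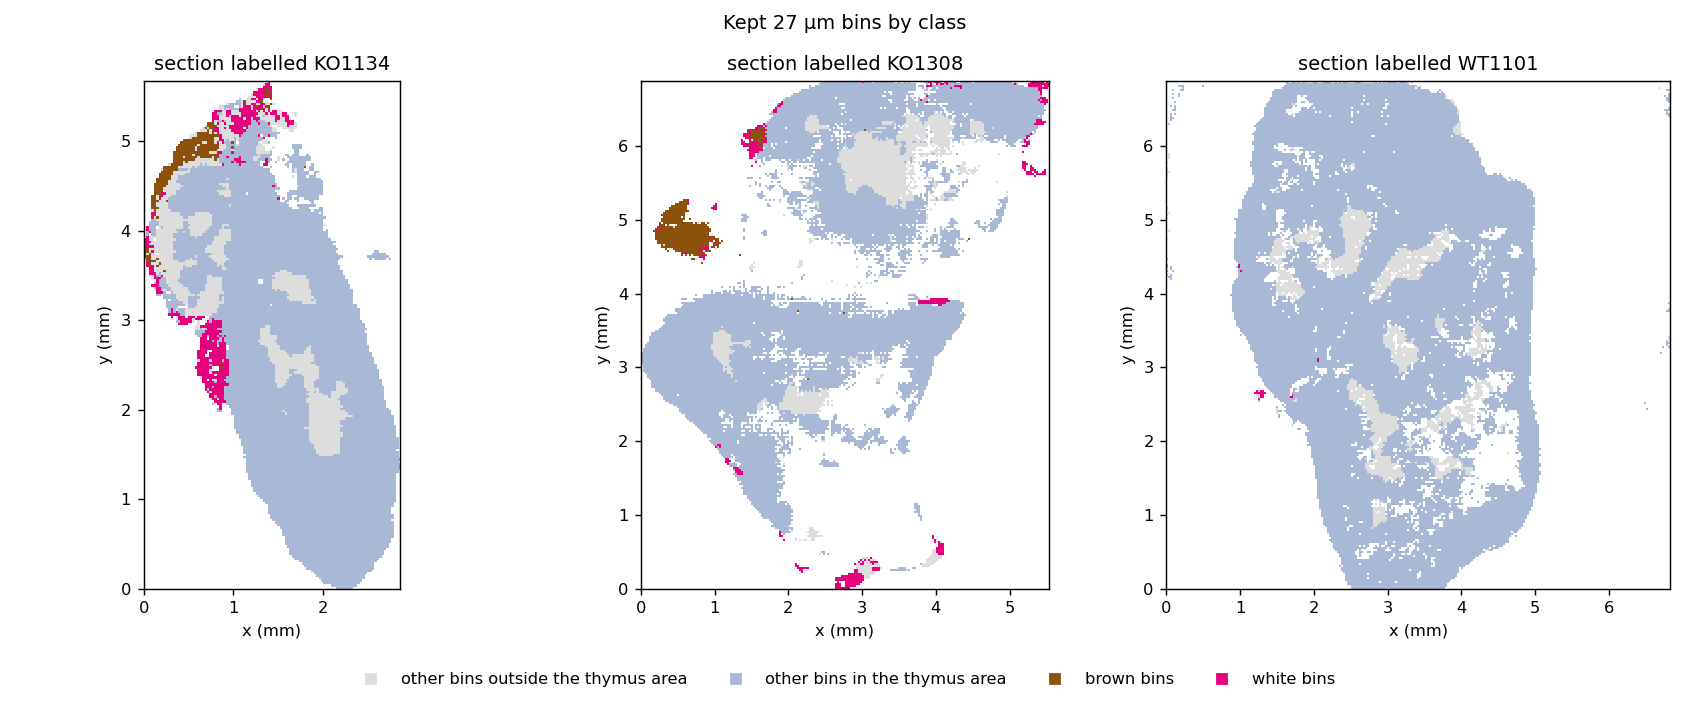
Kept 27 µm bins of the 3 sections at their positions (both axes in mm, equal scale), coloured as white bins, brown bins, and other bins inside or outside the thymus area. The 597 white bins of KO1134 form bands and blocks, many of them near the border. The 485 of KO1308 form small groups at the border and in detached pieces, and the 22 of WT1101 are hardly visible.

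Across genes, white bins were set against all other kept bins of the same section, and a gene was called when its CPM differed at least 2-fold in the same direction in both KO sections. To be counted, a gene needed at least 10 UMIs in white bins on the assumption that white bins had the section's average composition; 7940 genes outside the rule passed. This filter leaves out genes of low abundance whose RNA was concentrated in white bins, and these are called not tested below although their ratios are given. Of the 7940 genes, 328 (4.13%) were higher and 1002 (12.6%) lower in white bins of both sections, and the median gene had a ratio of 0.709 in KO1134 and 0.684 in KO1308. Because the bins were chosen from the same counts, these numbers describe the bins and nothing is read from the shares themselves.

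For the rule's own genes the values are a description of the choice. *Adipoq* was at 1175 CPM (1092 to 1264) in the white bins of KO1134 and at 27.8 CPM in other bins, and at 1314 CPM (1208 to 1427) and 54.0 CPM in KO1308. *Retn*, the gene of the adipocyte hormone resistin, was at 1566 and 17.1 CPM in KO1134 and at 3074 and 26.5 CPM in KO1308. *Cfd* reached 9152 CPM in KO1134 and 18550 CPM in KO1308, where other bins had 131 and 332 CPM. Among the brown genes, *Ucp1*, the uncoupling protein of thermogenic fat, was at 84.0 CPM in the white bins of KO1134 (other bins 39.6) and at 141 CPM in KO1308 (other bins 141), levels held down by the rule. *Cox8b* had ratios of 5.85 in KO1134 and 1.97 in KO1308, *Cidea* 3.88 and 1.14, and *Cox7a1* 2.84 and 1.36. The other bins include the brown bins, which in KO1308 held 2440 of their 2545 UMIs of *Ucp1*.

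The 20 genes furthest above other bins in both sections are named here, those of the lipid lists with their groups below. Of the 20, 15 also passed the filter at the level of other bins, and *Ghr*, *Plin1*, *H2-Q10*, *Gm15581* and *Slc25a10* did not. *Me1*, malic enzyme, a source of the NADPH used to build fatty acids, headed them with 765 CPM beside 26.5 in KO1134 and 1261 beside 45.7 in KO1308, ratios of 28.9 (25.7 to 32.4) and 27.6 (24.7 to 30.8). It was followed by *Pcx*, pyruvate carboxylase (27.9 and 24.9), *Scd1*, a fatty acid desaturase (30.3 and 21.4), *Adig*, adipogenin (27.7 and 18.8), and *Ghr*, the growth hormone receptor (19.7 and 18.1). *Mgst1*, a microsomal glutathione transferase (18.5 and 16.5), *Cdo1*, a cysteine dioxygenase (21.5 and 15.8), and *H2-Q10*, a class I histocompatibility gene (24.7 and 14.9), stood among them, as did *Gm15581* (11.5 and 14.5). *Slc25a1* and *Slc25a10*, mitochondrial carriers of citrate and dicarboxylates, closed the group with ratios of 11.6 and 11.8 and of 11.1 and 15.2. In the 22 white bins of WT1101 the same genes rested on few UMIs, for example 76 of *Scd1* (3944 CPM beside 7.36 in other bins), 7 of *Me1* and 1 of *Adig*.

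**Figure D2:**
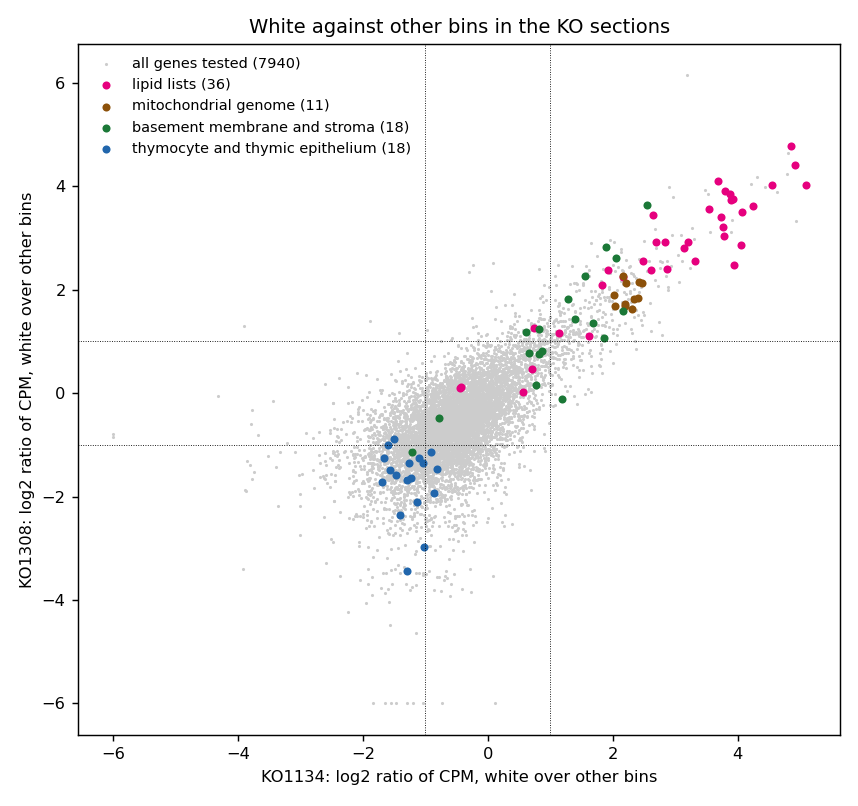
Log2 ratio of CPM in white bins to CPM in other bins, KO1134 on the x axis and KO1308 on the y axis, 1 point per gene tested (7940, grey), with 4 groups of lists coloured, dotted lines at the 2-fold limits, and genes with 0 UMIs in white bins drawn at the lower end of the axis. The 36 lipid genes lie mostly at the upper right and the 18 thymocyte and thymic epithelium genes at the lower left. The medians of these 2 thymic lists turned in 1 section each against other bins outside the thymus area, which were selected for a low share of cortex genes.

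Some further genes are named after their values were seen. *Cyp2e1*, a cytochrome P450, was at 707 beside 10.8 CPM in KO1134 and 511 beside 7.11 CPM in KO1308 and did not pass the filter. *Hp*, haptoglobin, had ratios of 30.6 and 10.1, and *Retnla*, a relative of resistin, was at 602 beside 66.2 CPM in KO1134 and 1157 beside 16.3 CPM in KO1308.

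Adipokines other than those of the rule mostly did not pass the filter. As a list they summed to 731 CPM in white bins beside 178 in other bins of KO1134, and to 611 beside 208 CPM in KO1308. Of 8 listed, 1 passed the filter and 0 were called: *Nampt*, which makes the NAD precursor, had ratios of 2.003 in KO1134 and 0.994 in KO1308. Among the 7 not tested, *Lep*, which encodes leptin, had 48 UMIs in the white bins of KO1134 (77.5 CPM, 57.2 to 103, beside 1.41 in other bins) and 23 in KO1308 (53.2 CPM, 33.7 to 79.8, beside 0.777). *Rbp4*, a retinol carrier secreted by fat, was at 233 CPM beside 3.80 and at 245 CPM beside 5.44. *Angptl4*, an inhibitor of lipoprotein lipase, had ratios of 8.09 and 8.48. *Lcn2*, lipocalin 2, had 0 UMIs in the white bins of both sections. Levels of *Lep*, *Rbp4* and *Angptl4* were thus above those of other bins in both sections, and the other adipokines differed from gene to gene.

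Lipid handling genes outside the rule were higher together in the white bins. Over the lists for droplet proteins, lipolysis, fatty acid uptake, triglyceride synthesis and lipogenesis, 31 of 36 tested genes were called higher and 0 lower, with a median ratio of 9.58 in KO1134 and 7.55 in KO1308, and 16 of the 19 genes not tested were above 1 in both sections. Because the filter's section average includes the white bins, a gene can pass through being high there; with the filter set on the level of other bins, 30 of 35 lipid genes were higher and 0 lower. Over all 55 genes with no filter, 47 were at least 2-fold higher in both sections and 1, *Hilpda*, at least 2-fold lower, with medians of 9.97 and 7.58. Among droplet proteins 4 of 5 tested genes of 11 were higher (medians 4.47 and 5.21). *Plin1*, the perilipin of the large droplet, was at 384 CPM (337 to 436) beside 11.3 in KO1134, at 451 CPM (390 to 519) beside 27.6 in KO1308 and at 363 CPM (7 UMIs) beside 0.492 in WT1101. *Plin2*, a perilipin found in many cells, had ratios of 4.47 and 4.73, while *Plin3*, which is also widely expressed, was at 1.48 and 1.01 and was not called. *Cavin1*, a protein of the caveolae that line adipocytes, had ratios of 9.97 and 5.92, and *Cav1*, its partner, 13.2 and 14.4 without passing the filter.

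Promoter windows are shown for *Plin1* and *Cidec*, which encode droplet coats of white fat, one outside and one inside the rule. Both windows were picked among those that held the letters marked below. Each runs from 250 bases before to 50 bases after a transcript start of the gene in RefSeq on GRCm38.p6. Such a start need not be the outer end of the gene. The windows are written 5′ to 3′ on the strand of the gene, and capitals mark TTGCNNAA on either strand, letters bound by C/EBP factors.
Plin1: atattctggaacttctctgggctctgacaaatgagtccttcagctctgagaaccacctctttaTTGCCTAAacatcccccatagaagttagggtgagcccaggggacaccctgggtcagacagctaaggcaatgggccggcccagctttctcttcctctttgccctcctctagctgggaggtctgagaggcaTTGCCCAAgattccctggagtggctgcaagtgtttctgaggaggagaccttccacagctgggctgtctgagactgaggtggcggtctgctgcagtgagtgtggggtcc
Cidec: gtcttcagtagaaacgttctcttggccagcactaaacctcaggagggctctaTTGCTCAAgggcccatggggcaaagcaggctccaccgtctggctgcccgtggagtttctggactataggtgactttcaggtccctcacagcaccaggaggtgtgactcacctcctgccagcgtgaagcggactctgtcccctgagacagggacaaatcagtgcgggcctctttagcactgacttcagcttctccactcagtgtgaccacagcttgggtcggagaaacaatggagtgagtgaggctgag
The *Plin1* window is chr7:79732727-79733026 (minus strand) and the *Cidec* window chr6:113434715-113435014 (minus strand). These letters occurred in 10.8% of all 32851 promoter windows, in 7.95% of the windows of tested genes and in 7.80% of the 295 windows of 223 matched genes among the 328 higher ones. The letters occurred in 2 of 20 windows of the 20 named higher genes and in 1 of 6 windows of the white genes of the rule. The match is a description of letters, and its share among the higher genes lay near that of all tested genes.

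Lipolysis genes were also higher, 3 of 4 tested of 11 (medians 11.5 and 7.43). *Pnpla2*, the lipase that takes the first fatty acid off triglyceride, was at 673 CPM (610 to 741) in KO1134 and 687 CPM (611 to 770) in KO1308, with ratios of 9.19 and 7.56. *Mgll*, the monoglyceride lipase, had ratios of 13.7 and 8.24. Without passing the filter, *Lipe*, the hormone-sensitive lipase, reached 17.5 and 10.2, and *Adrb3*, the adrenergic receptor through which nerves start lipolysis in fat, 31.1 and 16.8. *Pde3b*, the phosphodiesterase through which insulin restrains lipolysis, was not called, with 1.66 and 2.39.

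Fatty acid uptake genes were higher for 6 of 7 tested of 9 (medians 13.5 and 10.9). *Fabp4*, the fatty acid carrier of adipocytes, was at 9704 CPM (9460 to 9953) in KO1134, 11335 CPM (11020 to 11657) in KO1308 and 9394 CPM (181 UMIs) in WT1101, and in other bins at 513, 916 and 91.0 CPM. *Lpl*, lipoprotein lipase, had ratios of 13.5 and 9.28, and *Cd36*, a fatty acid transporter, 14.9 and 13.4. *Acsl1*, which activates fatty acids, had 16.8 and 11.4. *Fabp5*, a carrier made by many cell types, was not called (0.740 and 1.09).

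Triglyceride synthesis genes were higher for 6 of 7 tested of 9 (medians 7.32 and 5.61). *Dgat2*, which adds the last fatty acid, had ratios of 13.9 and 15.1, and *Agpat2*, an earlier acyltransferase, 13.3 and 10.6. *Pck1*, which supplies the glycerol backbone, differed between the sections, with 699 CPM (635 to 768) and a ratio of 15.4 in KO1134 and 608 CPM (537 to 687) and a ratio of 5.61 in KO1308, where other bins held more. *Gpat4*, a glycerol phosphate acyltransferase, was not called (1.64 and 1.37).

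De novo lipogenesis, the making of fatty acids from glucose, was the list with the most genes called, 12 of 13 tested of 15 (medians 11.6 and 11.8). *Scd1* was at 11648 CPM (11381 to 11920) in KO1134 and 16008 CPM (15633 to 16389) in KO1308, and *Fasn*, fatty acid synthase, at 4870 CPM (4698 to 5047) and 7354 CPM (7100 to 7614). *Acaca*, acetyl-CoA carboxylase, had ratios of 15.2 and 13.5, *Thrsp*, a lipogenic regulator, 23.4 and 16.3, and *Elovl6*, a fatty acid elongase, 12.9 and 17.2. *Scd2*, the desaturase of other tissues, was not called, with 0.734 and 1.08. Of the factors that drive the pathway, *Srebf1* was called (3.08 and 2.15), while *Mlxipl*, which responds to glucose, did not pass the filter at 25.8 and 14.3.

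Of 9 genes listed for insulin signalling and glucose uptake, 5 were tested and 0 were called, where 4.13% of all genes were called higher and 12.6% lower. Their medians were 1.497 and 1.66, beside 0.709 and 0.684 for all genes tested. Of the 5 tested genes, 3 were above 1 and 2 below 1 in both sections. The lowest ratio was 0.779 in KO1134 and 0.537 in KO1308. Among those above 1, *Akt2*, the kinase downstream of insulin, had ratios of 1.497 and 1.78, and *Insr*, the insulin receptor, 1.62 and 1.66. Among the 4 not tested, *Slc2a4*, the insulin-responsive glucose transporter, was at 141 CPM beside 9.40 and 169 beside 21.0 CPM. Adipogenic transcription factors were higher for 3 of 4 tested of 10 (medians 2.51 and 2.58). *Cebpa*, a factor that maintains the adipocyte state, was at 252 beside 32.7 CPM in KO1134 and 326 beside 39.4 CPM in KO1308. *Pparg*, the main regulator of adipocytes, had 88 and 77 UMIs with ratios of 8.95 (7.05 to 11.3) and 14.5 (11.01 to 18.81) and did not pass the filter.

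Transcripts of the mitochondrial genome were called higher for 11 of 11 tested of 13 (medians 4.61 and 3.61), a list that the limit of 30% on kept bins touches. Against other bins outside the thymus area its log2 medians were 0.92 and 0.41, under the 2-fold limit. *mt-Co1*, a subunit of the last respiratory complex, was at 14162 CPM (13867 to 14462) beside 2790 in KO1134 and at 12026 CPM (11702 to 12358) beside 3390 in KO1308. In the 22 white bins of WT1101 the list summed to 51225 CPM (48079 to 54523), beside 7617 in other bins. Thermogenic genes outside the rule were called higher for 2 of 3 tested of 16 (medians 2.83 and 2.12), a direction that turned in KO1308 but not in KO1134 when only other bins outside the thymus area, which include the brown bins, were compared. *Cpt2*, which brings fatty acids into mitochondria, was at 102 beside 22.4 CPM and 92.5 beside 23.7 CPM, and *Pdk4*, a brake on glucose use, at 113 beside 14.0 and 118 beside 36.4 CPM without passing the filter. The tested gene that was not called, *Gk*, went the other way, with ratios of 0.599 in KO1134 and 0.376 in KO1308.

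Collagens and vessels of the fat were higher in part, and against other bins outside the thymus area the log2 medians of these lists, averaged over the sections, fell below the 2-fold limit, to 0.92 for basement membrane, 0.60 for stroma and 0.71 for endothelium. Of 12 genes of the basement membrane and collagen VI, which wrap each adipocyte, 9 were tested and 5 called higher (medians 2.94 and 2.36). *Sparc*, a matrix protein made by fat, had ratios of 5.82 (5.12 to 6.59) and 12.4 (11.2 to 13.8), *Col4a1* 4.16 and 6.10, and *Col6a3*, whose cleaved end acts as a signal from fat, 3.64 and 2.10. Of 14 markers of fat stroma and fibroblasts, 9 were tested, 4 called higher and 1 lower (medians 2.29 and 2.26). *Col3a1*, a collagen of loose connective tissue, was at 187 CPM (155 to 225) beside 50.4 in KO1134 and at 264 CPM (218 to 317) beside 37.2 in KO1308, and the lower gene, *Dpp4*, which T cells also make, had 0.431 and 0.454. Of 10 endothelium markers 4 were tested and 2 called higher (medians 2.44 and 3.57); *Egfl7*, a protein of blood vessels, had 3.50 and 4.49, and *Pecam1*, which leukocytes also carry, was not called (0.902 and 1.66). RNA of fibroblasts and vessels therefore lay in the same bins as that of adipocytes.

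Of 10 macrophage markers 6 were tested and 0 called, where 4.13% of all genes were called higher and 12.6% lower. Nothing is read from a count over so few genes. Their medians were 0.493 and 0.797, beside 0.709 and 0.684 for all genes tested. The list summed to 530 CPM (474 to 590) beside 946 in KO1134 and 678 CPM (602 to 760) beside 702 in KO1308. *Mrc1*, a receptor of resident macrophages, had ratios of 1.16 and 2.62, and *C1qa*, a complement gene of macrophages, 0.534 and 0.770. Of 7 markers of the macrophages that gather around lipid, 4 were tested and 0 called (medians 0.810 and 1.29, a direction that differed between the sections and turned on average when other bins were taken outside the thymus area). This list summed to 570 CPM (512 to 633) beside 504 in KO1134 and 736 CPM (657 to 821) beside 490 in KO1308. Its tested genes ranged in ratio from 0.657 to 1.62 in KO1134 and from 0.590 to 2.51 in KO1308. *Trem2*, a receptor of the macrophages around lipid, had 4 UMIs in the white bins of KO1134 and 0 in KO1308, so that it was at or near the limit that a count of 0 allows. Of 9 inflammatory genes 2 were tested and 1, *Ccl5*, a chemokine of T and NK cells, was called lower (0.464 and 0.287). The list medians were 0.576 and 0.565, and 2 tested genes are too few to set beside the share over all genes. *Tnf* had 2 and 3 UMIs, *Il6* 0 and 0, and *Ccl2*, a chemokine that attracts monocytes, 5 and 4 UMIs in the white bins of KO1134 and KO1308.

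Genes of the thymus itself were lower in white bins but not absent. Of 12 thymocyte markers 11 were tested and 7 called lower (medians 0.362 and 0.391, a direction that turned in KO1308 against other bins outside the thymus area). Their sum was 717 CPM (652 to 787) beside 1686 in KO1134, 1561 CPM (1446 to 1684) beside 3826 in KO1308 and 5553 CPM (4551 to 6711) beside 7804 in WT1101. *Cd3g*, a chain of the T cell receptor complex, had ratios of 0.309 and 0.303. Of 8 thymic epithelium markers 7 were tested and 6 called lower (medians 0.454 and 0.232, a direction that turned in KO1134 against those bins), with *Ccl25*, a chemokine of cortical epithelium, at 0.454 and 0.232 and *Krt5*, a keratin of the medulla, at 0.406 and 0.0927. Bins outside the thymus area were selected for a low share of cortex genes around them. Ratios of thymic genes rise against such bins by that selection, so nothing is read from these turns. Of 5 proliferation genes 5 were tested and 4 called lower (medians 0.468 and 0.349, a direction that turned against other bins outside the thymus area); *Cdk1*, a kinase of the cell cycle, had 0.229 and 0.428. Of 5 B cell markers 3 were tested and 0 called (medians 0.361 and 1.02), and of 5 plasma cell markers 5 were tested and 1, *Ighg2c*, was called lower (0.351 and 0.249; list medians 0.351 and 0.650). Against other bins outside the thymus area the log2 median of the plasma cell list was -0.15 in KO1134 and 0.01 in KO1308, and that of the B cell list was -2.67 and -0.98, so that both lists turned in KO1308. The part of this lymphoid RNA in the other ratios was not tested.

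Among 4 genes checked for p53, 3 were tested and 1 called lower, where 12.6% of all genes tested were called lower. The medians of the 3 genes were 0.466 and 0.527, beside 0.709 and 0.684 for all genes tested. Nothing is read from a count over so few genes. *Trp53* was at 8.07 CPM (5 UMIs) in the white bins of KO1134 and 13.9 CPM (6 UMIs) in KO1308, beside 17.2 and 25.6 CPM in other bins, and at 1 UMI in WT1101. *Cdkn2a*, which encodes the p53 activator ARF, was the gene called lower, at 29.1 beside 62.4 CPM and 11.6 beside 51.2 CPM. The p53 target *Cdkn1a* had 1 and 10 UMIs. At this depth no difference in *Trp53* between the white bins of the sections was detectable.

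Markers of other cells that could lie in the bins were counted as well. Red cell genes were not tested (0 of 5), yet they summed to 707 CPM (643 to 777) in the white bins of KO1134, beside 29.5 in other bins, and to 69.4 CPM (46.8 to 99.1), beside 8.60, in KO1308. In WT1101 they had 16 UMIs (830 CPM, 475 to 1349), beside 75.5 CPM. The beta globin gene *Hbb-bs* had 239 UMIs in the white bins of KO1134 (386 CPM) and 11 in KO1308 (25.5 CPM); in KO1134 the sum was 1072 CPM in white bins outside the thymus area and 111 CPM inside it. Mast cell markers (0 of 5 tested) summed to 136 beside 311 CPM in KO1134 and 37.0 beside 24.0 CPM in KO1308, and mesothelium markers (0 of 5 tested) to 17.8 beside 9.76 and 60.1 beside 38.1 CPM. Of 5 nerve sheath markers 1 was tested and 0 called (*Mbp*, a myelin gene, 0.544 and 0.532), with sums of 176 beside 150 and 180 beside 139.5 CPM. Of 5 smooth muscle markers 2 were tested and 0 called (medians 0.782 and 1.02, sums 95.3 beside 80.5 and 111 beside 91.1 CPM), and striated muscle markers (0 of 8 tested) summed to 46.8 beside 51.7 and 23.1 beside 58.7 CPM. In WT1101 the striated muscle sum was 415 CPM, from 8 UMIs in white bins, beside 6.47 in other bins.

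**Figure D3:**
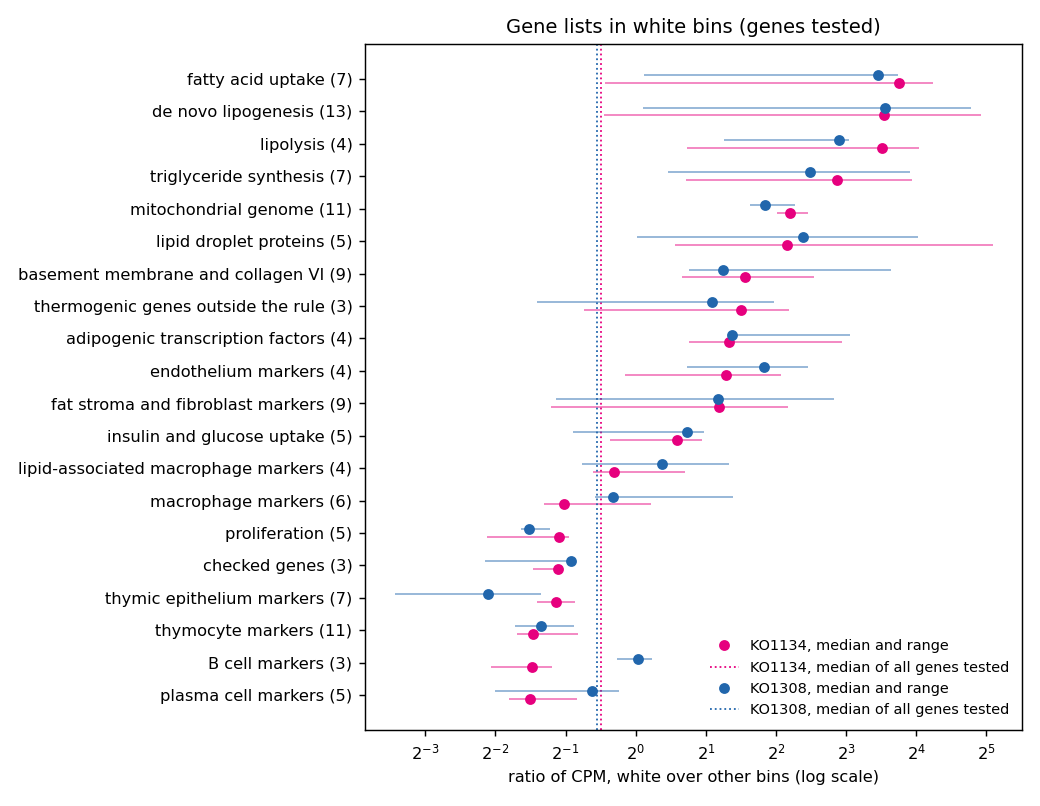
Ratio of CPM in white bins to CPM in other bins (log scale) for each gene list with at least 3 genes tested: the point is the median over the tested genes (their number in brackets), the bar their range, and the dotted lines the medians of all genes tested (0.709 in KO1134 and 0.684 in KO1308). The lipid lists and the mitochondrial genome lie furthest to the right and the thymic lists to the left. The plasma cell list lies to the left in KO1134 (0.351) and near the dotted line in KO1308 (0.650). Against other bins outside the thymus area only, the proliferation medians turned in both sections, those of thermogenic genes, thymocytes, plasma cells and B cells in KO1308, and that of thymic epithelium in KO1134. Those bins were selected for a low share of cortex genes, which by itself raises the ratios of thymic genes.

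The 10 genes furthest below other bins in both sections were counted 1 to 6 times in white bins. *Apaf1*, which starts caspase activation, had 5 and 2 UMIs and ratios of 0.166 (0.0539 to 0.389) and 0.102 (0.0123 to 0.370). *E2f8*, a cell cycle repressor, had ratios of 0.125 (0.0151 to 0.452) and 0.149 (0.0306 to 0.435). *Cd84*, a receptor of leukocytes, had 0.163 and 0.190. *Gm34086*, *Slc2a4rg-ps*, *Nbeal2*, *Nlrc3*, *Mgat3*, *Tspoap1* and *Art2b* completed the group, with ratios from 0.0532 to 0.215. Intervals this wide do not order these genes among themselves.

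Lipid genes fell off with distance from the white bins, and other lists did not all do so. The lipid genes outside the rule summed to 44198 CPM in the white bins of KO1134, 25309 CPM in bins touching them, 15704 CPM 2 bins away and 2849 CPM more than 8 bins away. In KO1308 the same values were 57602, 31249, 21496 and 2527 CPM. The mitochondrial genome was at 74351, 73369, 63572 and 10958 CPM in KO1134 and 68946, 77723, 67141 and 9783 CPM in KO1308, and the ring next to white bins also held 1921 and 3300 CPM of the brown genes of the rule, beside 1129 and 870 CPM in the white bins. B cell markers in KO1308 were higher in the adjacent rings than in the white bins or far away, at 1788, 3636, 3486 and 1660 CPM, while in KO1134 they were at 562, 719, 1048 and 1377 CPM. Red cell genes in KO1134 were at 707, 145, 40.1 and 28.5 CPM.

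**Figure D4:**
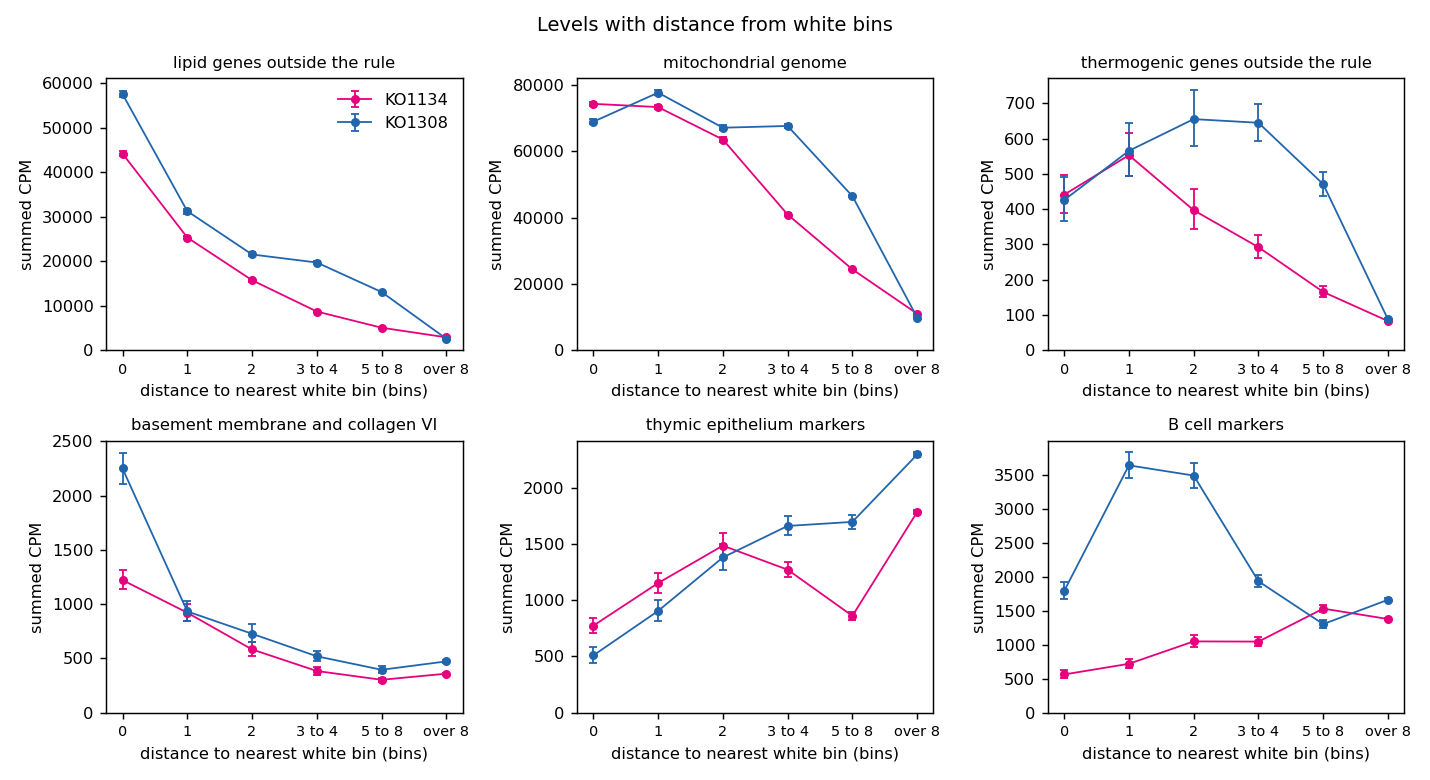
Summed CPM of 6 gene lists by distance to the nearest white bin, in bins of 27 µm, for KO1134 and KO1308; distance 0 is the white bins themselves, and bars are 95% counting intervals. Lipid genes outside the rule decline from 44198 to 2849 CPM and from 57602 to 2527 CPM, and B cell markers of KO1308 are highest, at 3636 CPM, in the bins next to white bins.

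Among white bins, those richer in the 6 genes also held more of the other lipid genes. In KO1134 438 bins at 1 to 2% had 40580 CPM of lipid genes outside the rule (39989 to 41177) and 159 bins at 2 to 5% had 53320 CPM (52246 to 54410). In KO1308 182 bins at 1 to 2% had 36248 CPM, 266 bins at 2 to 5% had 68426 CPM and 37 bins at 5 to 10% had 82206 CPM. Over the same bands of KO1308 thymocyte markers went from 2528 to 1095 and 259 CPM and plasma cell markers from 11908 to 3056 and 746 CPM. The bands are set by the rule's own genes, so this order is a description.

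White bins were next set against the brown bins of the same sections, with 5364 genes tested. In both sections 637 genes (11.9%) were at least 2-fold higher and 166 (3.09%) at least 2-fold lower in white bins, and the median gene had ratios of 1.38 and 1.52. The lipid lists had medians between 0.641 and 1.35, below that of all genes, with *Fabp4* at 0.929 and 0.788 and *Plin1* at 1.43 and 0.988. Thermogenic genes outside the rule were lower for 9 of 11 tested (medians 0.281 and 0.175), and the mitochondrial genome for 11 of 13 (medians 0.422 and 0.358). *Fabp3*, a fatty acid carrier of oxidative tissue, was at 12.9 beside 164 CPM in KO1134 and 9.25 beside 154 CPM in KO1308. *Coq8a*, needed for ubiquinone synthesis, had ratios of 0.155 (0.117 to 0.202) and 0.148 (0.102 to 0.207), *Acaa2*, an enzyme of fatty acid oxidation, 0.202 and 0.144, and *Cpt1b*, the gate of fatty acid entry into mitochondria, 0.197 and 0.107.

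The lower end also held *Pank1* (0.197 and 0.0998), *Gk*, glycerol kinase (0.231 and 0.108), *Ttc41* (0.0881 and 0.0758) and *Slc27a2*, which had 3 UMIs in the white bins of KO1134 and 0 in KO1308, at least 5.70-fold lower there. At the other end stood *Oxtr*, the oxytocin receptor, with 29 UMIs in white and 0 in brown bins of KO1134, at least 11.7-fold higher, and a ratio of 38.4 (14.4 to 144.5) in KO1308. *Trf*, transferrin, was at 252 beside 30.7 CPM and 613 beside 28.3 CPM, and *Slc25a10* had ratios of 8.85 and 8.44. *Spon1* (26.6 and 9.12), *Anxa1* (9.20 and 11.5), *Gm20425* (9.05 and 17.8), *Ptges*, which makes prostaglandin E2 (36.3 and 6.35), and *Plod2*, a collagen hydroxylase (6.78 and 6.14), completed it. *Lep* and *Rbp4* were also higher, by 2.77 and 3.62 times and by 3.71 and 3.94 times.

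Stroma and matrix also separated the bins. Markers of fat stroma and fibroblasts were higher in white bins for 7 of 10 tested (medians 2.86 and 3.38) and the basement membrane list for 6 of 11 (medians 2.18 and 2.53). Thymocyte markers were higher for 4 of 7 (medians 2.13 and 7.84, beside 1.38 and 1.52 for all genes), so that their share of the UMIs was larger in white bins. In counts the list had 444 UMIs in the 597 white bins and 226 in the 300 brown bins of KO1134. In KO1308 it had 675 UMIs in 485 white bins and 175 in 561 brown bins. Brown bins were deeper, with medians of 2560 UMIs in KO1134 and 1505 in KO1308. *Gpd1*, which makes the glycerol backbone, was at 417 beside 1713 CPM in KO1134 and 803 beside 2860 CPM in KO1308. The rule itself sets the brown genes apart, and *Ucp1* was at 1399 and 2758 CPM in brown bins.

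**Figure D5:**
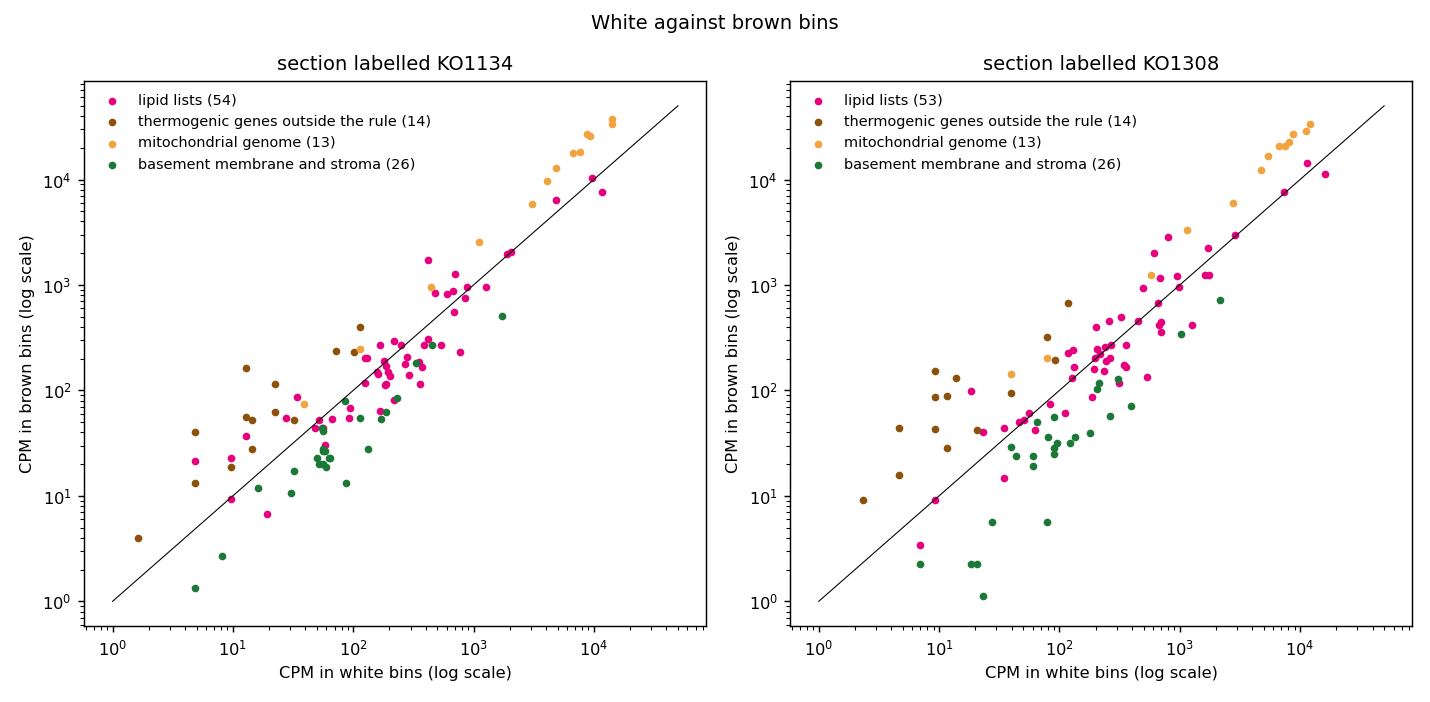
CPM in white bins (x axis) against CPM in brown bins (y axis), both on log scales, 1 point per gene of the lipid, thermogenic, mitochondrial genome, and basement membrane and stroma lists with UMIs in both kinds of bin, KO1134 on the left and KO1308 on the right; the line marks equal levels. Lipid genes scatter around the line, thermogenic and mitochondrial genes lie mostly above it, and basement membrane and stroma genes mostly below it.

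The white bins of the KO sections were also set against each other, as 1 section each. Of 6789 genes, 352 (5.18%) were at least 2-fold higher and 504 (7.42%) at least 2-fold lower in KO1134, with a median ratio of 0.952 in white bins and 0.935 in other bins. Of these, 102 of the higher and 167 of the lower genes had the same 2-fold difference in other bins. Lipid lists were close, with medians from 0.662 for lipogenesis to 1.01 for lipolysis, and *Adipoq* had a ratio of 0.895 (0.801 to 1.00). *Cfd* and *Retn* were lower in KO1134, with ratios of 0.493 (0.477 to 0.511) and 0.510 (0.469 to 0.554). All 4 tested red cell genes were higher in KO1134, with a median of 8.24, beside 4.05 for the same genes in other bins.

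Some of the genes at either end differed as much in other bins, and others did not. *Wnk4*, a kinase of salt transport, had 222 UMIs in the white bins of KO1134 and 0 in those of KO1308, at least 51.7-fold higher, and other bins differed 56.2-fold. *Cpa3*, a protease of mast cells, had 80 and 1 UMIs, a ratio of 55.8 (9.74 to 2233), beside 59.3 in other bins. *Gm26631* and *Ndufb1-ps* were counted 246 and 320 times in the white bins of KO1308, where they were at least 117.5-fold and 152.8-fold higher, but 0 times in all kept bins of KO1134 and of WT1101, so that whether the counting was alike in all sections was not settled. *5830411N06Rik*, *Tcrg-C4* and *Gm15218* had 72, 63 and 85 UMIs in KO1134 and 1, 1 and 3 in KO1308, and *Cd163l1*, *Fabp12* and *Gm973* had 32, 26 and 26 UMIs and 0. In the other direction *Slc5a10* had 3 and 68 UMIs, *Gm43305* 1 and 26, *Slc15a2*, a peptide transporter, 2 and 28, *Tnfaip1* 3 and 28 (a ratio of 0.0748, beside 0.728 in other bins), and *mt-Tg*, a mitochondrial transfer RNA, 10 and 79.

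*Cxcl13*, the chemokine that draws B cells, had 2 UMIs in the white bins of KO1134 and 71 in those of KO1308, a ratio of 0.0197 (0.00234 to 0.0737). All 71 UMIs lay in the 195 white bins of detached groups, at 380 CPM (297 to 480), and 0 in the 290 white bins over the main tissue. The detached white bins also held more RNA of the B cell gene *Ighm*, 2865 CPM (2628 to 3119) beside 635 CPM (540 to 743), and of *Retnla* 2383 CPM (2167 to 2615) beside 224 CPM (169 to 292). *Cfd* was at 23426 CPM (22737 to 24131) there and at 14842 CPM (14364 to 15332) over tissue, while *Plin1* was at 450 and 452 CPM. Thymocyte markers were at 407 CPM in the detached white bins and at 2439 CPM over tissue, and macrophage markers at 1034 and 407 CPM. The difference between the KO sections in *Cxcl13* therefore rested on the detached groups, and without them *Cxcl13* had 0 UMIs in KO1308.

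The 22 white bins of WT1101 held 19268 UMIs. They contained 13 UMIs of the adipokine list (675 CPM, 359 to 1154) and 27 of the droplet proteins (1401 CPM, 924 to 2039), beside 1734 CPM (1632 to 1841) and 2084 CPM (1950 to 2225) of droplet proteins in KO1134 and KO1308. Lipogenesis genes were at 10484 CPM (9088 to 12033), where the KO sections had 23337 and 33947 CPM, and fatty acid uptake genes at 12923 CPM (11368 to 14632), where they had 14393 and 16241 CPM. *Fabp4* was near its KO levels and *Fasn*, with 50 UMIs (2595 CPM), was below them. With 1 WT section of 22 white bins, 14 of them in detached groups, these differences could not be tested.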

How the data were processed

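Thymus sections were placed on BMKMANU S1000 slides, whose barcoded spots record where each transcript was captured. The authors deposited UMI counts per gene and spot for each section, made with BSTMatrix and STAR and without normalisation, and the submitters' processing notes name the build GRCm38. The permeabilisation time differed between the KO and WT sections.

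Spot counts were summed in squares of 27 µm, using the spot positions of the files, and bins were classed by the rule given at the opening. Doublets were not called and the authors' clustering was not used. Levels are UMIs per 1000000 UMIs of the same bins (CPM), with exact 95% intervals, and differences were called at 2-fold in both KO sections, with no test. Fewer than 10 expected UMIs left a gene untested. A fold against 0 UMIs was computed against 3 UMIs over the group of bins. The 28 gene lists (245 genes) were described by counts and medians. Members and lists were chosen with earlier results of these data known. Genes named are the 10 of the rule, the 20 highest and 10 lowest by the less extreme of the section ratios, 8 at either end of the comparisons with brown bins and between the KO sections, and list examples; the few others are said to be chosen after their values were seen. Of 54838 gene identifiers, 54723 (99.8%) were found in GENCODE M21. Promoter windows are from RefSeq on GRCm38.p6. Computations used Python 3.11.15, numpy 2.4.6, scipy 1.17.1, pandas 2.3.3 and matplotlib 3.10.9, and the scripts were tested on simulated data. Alternatives changed the size of the bins, the limits of the rule, the filters and the bins compared.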

Additional observations from a re-analysis of the deposited data

Results flagged for a closer look

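Bins with fewer than 300 genes entered no comparison, yet some of them held white adipocyte RNA. In KO1134, 36 of 438 such bins (8.22%, 5.82 to 11.2) had at least 1% of their UMIs, and at least 3 UMIs, from the 6 white genes, and in KO1308 these were 419 of 13757 (3.05%). In WT1101, the control, 4 of 4329 such bins did so (0.0924%, 0.0252 to 0.236), and the values of both KO sections were singled out because they lie above it.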

How the results depend on the processing

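The share of white bins in KO1134, 4.96%, became 3.69% in 20 µm bins, 5.43% in 50 µm bins, 1.32% with a limit of 2%, 4.14% with at least 500 genes and 1.34% without *Cfd* in the rule. In KO1308 the share of 2.78% became 2.36% in 20 µm bins, 1.74% with a limit of 2%, 3.78% without the limit on brown genes, 2.30% with at least 500 genes, 1.80% in connected groups of 200 bins and 1.26% without *Cfd*. In WT1101 the share of 0.0807% became 0.0330% with a limit of 2%, 0.0295% in connected groups and 0.0147% without *Cfd*. The 328 genes higher against other bins became 151 with a limit of 2%, 125 with 30 expected UMIs, 214 in connected groups and 467 to 502 leaving out either KO section. The 1002 lower genes became 397 with 30 expected UMIs, 605 against other bins outside the thymus area, 573 in connected groups and 2228 to 2266 leaving out either section. Against brown bins the 637 higher genes became 163 with 30 expected UMIs and 1649 to 1741 leaving out a section, and the 166 lower genes 268 to 374 leaving out a section. Between the KO sections the 352 higher genes became 97 and the 504 lower genes 96 with 30 expected UMIs, and the lower genes 288 in connected groups. The connected groups for gene counts were chosen after seeing the data, as was a filter on the level of other bins, which gave 308 higher and 1011 lower genes. The share of white bins in the thymus area became 83.4% (KO1134) and 48.3% (KO1308) with an area limit of 25%, and 26.1% in KO1308 with a limit of 2% on white genes.

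Against other bins outside the thymus area only, the median of all genes moved by 0.28 on the log2 scale, and 3 of 24 lists changed sign in their mean over the KO sections: thermogenic genes from 1.29 to -0.0090 (0.22 in KO1134 and -0.24 in KO1308), proliferation genes from -1.31 to 0.36, and lipid-associated macrophage markers from 0.03 to -0.03. The medians of the lipid lists fell to between 1.504 and 2.10 and stayed above 0. A limit of 2% moved the median of all genes by -0.11, and leaving mitochondrial and rule genes out of CPM by 0.12; the cause of each change was not tested. A limit of 5% between the KO sections was not run, since KO1134 had no bin there. No paired analysis was possible because the results come from no test. The depth of the WT white bins, 19268 UMIs, and 1 section per mouse limit all comparisons.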
